A study of Homo sapiens with 6 samples.

Results

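The lipid droplet genes described here are G0S2, which was chosen by its fold change because it was among the genes that rose most with miR-885-5p, and 9 genes of droplet coats, triglyceride synthesis and lipolysis chosen for their function. Of these 10 genes 9 have a row among the 14034 genes counted, and LIPE, the hormone-sensitive lipase gene, was not analysed here. The cells were JHH-4, an established line from a human hepatocellular carcinoma. Messenger RNA was sequenced in 3 libraries of JHH-4 cells that overexpress hsa-miR-885-5p from a plasmid carrying the primary microRNA, and in 3 libraries of Control JHH-4 cells with the genotype WT. The submitters describe the 3 libraries of a group as technical replicates, so the p-values speak only to the spread among technical replicates. The labels do not say how Control cells were treated, so the plasmid and the microRNA cannot be told apart, and the level of miR-885-5p itself was not analysed here.

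Hepatocytes store fatty acids as triglyceride in lipid droplets, which form at the endoplasmic reticulum and are covered by perilipins. The diacylglycerol acyltransferases DGAT1 and DGAT2 make the triglyceride. Adipose triglyceride lipase, the product of PNPLA2, removes the first fatty acid with the help of its coactivator ABHD5 (CGI-58), while the small proteins G0S2 and HILPDA bind the lipase and inhibit it. PNPLA3 is a related patatin-domain protein of the droplet surface in liver that can sequester ABHD5.

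Library totals lay between 46382314 and 56409821 counts, and in a principal component analysis Control library 3 lay apart from the other libraries on the second component, which held 12% of the variance. Of 20 listed hepatocyte markers 8 were tested, among them the keratin genes KRT8 and KRT18 at 1409 and 542 CPM (counts scaled to library size) with miR-885-5p, against 1725 and 573 CPM in Control. The 8 markers summed to 1970 to 2044 CPM with miR-885-5p against 2342 to 2429 CPM in Control; CPS1 rose, while KRT8 and 3 fibrinogen chain genes (FGA, FGB, FGG) fell, FGB to 4.49 ± 0.757 CPM with miR-885-5p against 20.7 ± 1.03 CPM in Control. ALB, APOB and HNF4A were not analysed here, so most of the hepatocyte sum comes from the keratins, which other epithelia share. Of 8 adipocyte markers 3 were tested, and ADIPOQ, LEP, FABP4, PLIN1 and CIDEC, which define that cell type, were not analysed here. The summed adipocyte list lay between 142 and 147 CPM with miR-885-5p and between 148 and 150 CPM in Control, nearly all of it from ADIPOR2, a receptor gene that many tissues express. Of 10 fibroblast and stellate markers 5 were tested and 3 rose (RGS5, PDGFRB and LUM), where 26.3% of all genes rose, while COL1A1 and PDGFRA did not pass the test. COL1A2, COL3A1, DCN, ACTA2 and DES were not analysed here. The list summed to 402 to 413 CPM with miR-885-5p against 226 to 248 CPM in Control, nearly all of it from RGS5, a pericyte and smooth muscle gene, at 377 ± 5.73 CPM with miR-885-5p against 217 ± 11.8 CPM in Control (SD, n = 3 each). The endothelial list (2 of 7 markers tested) summed to 2.50 to 2.78 CPM with miR-885-5p against 1.42 to 2.08 CPM in Control. Its PECAM1 rose and the other marker tested did not pass, while VWF and CDH5 were not analysed here. The leukocyte list (3 of 11 tested) summed to 153 to 156 CPM against 158 to 184 CPM in Control, most of it from CD68, and the pan-leukocyte gene PTPRC was not analysed here. CD68 did not pass the test. HLA-DRA fell to 27.5 ± 0.495 CPM with miR-885-5p against 43.1 ± 2.23 CPM in Control. CD14 fell as well, at 0.786 against 1.41 CPM, where 26.5% of all genes fell. The part of these marker lists in the results below was not tested.

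The mature microRNA and its matches in the genes are shown first, because they say which of the transcripts carry letters that pair with its seed. The sequence below is RefSeq's for GRCh38.p14, at bases 10394531 to 10394552 of the minus strand of chromosome 3, with the seed (bases 2 to 8) in capitals.
hsa-miR-885-5p: uCCAUUACacuacccugccucu

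Pairing with the seed reads GTAATGGA for the full 8mer, GTAATGG for the 7mer-m8, TAATGGA for the 7mer-A1 and TAATGG for the 6mer. Each gene's longest annotated 3′ UTR of a protein-coding transcript in GENCODE 29 (GRCh38) was searched on the transcript strand, and a shorter match inside a longer one was counted with the longer. None of the 9 genes holds an 8mer or a 7mer-m8. The 3′ UTRs of G0S2 (392 bases), PNPLA2, PLIN2, HILPDA, DGAT1 and DGAT2 hold none of the 4 match types, as do 69.6% of 12308 genes with a 3′ UTR. ABHD5, with a 3′ UTR of 4193 bases, holds 2 matches of the 7mer-A1 type and 1 6mer, PLIN3 holds 1 7mer-A1 and PNPLA3 holds 1 6mer. In all genes a 7mer-A1 was the strongest match in 9.24% and a 6mer in 13.2%. These shares were not matched for the length of the 3′ UTR. The matches are printed below with their flanks, with the match in capitals; each is a match of letters and not a shown site of binding.
ABHD5, 7mer-A1 at chr3:43721907-43721913, plus strand: ataaaataaaaTAATGGAaatacctttct
ABHD5, 7mer-A1 at chr3:43722674-43722680, plus strand: ctgtactttgcTAATGGAatatatcctac
ABHD5, 6mer at chr3:43719885-43719890, plus strand: aaatagtggttTAATGGttttgttattg
PLIN3, 7mer-A1 at chr19:4838501-4838507, minus strand: cagcctgtagcTAATGGActtgggatttc
PNPLA3, 6mer at chr22:43946668-43946673, plus strand: cgtggccctatTAATGGtcagactgttc

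G0S2 was far higher with miR-885-5p, and the genes around its lipase moved in different directions. PNPLA3 doubled, PNPLA2 itself rose slightly, the coactivator gene ABHD5 and the coat gene PLIN2 fell, and PLIN3, HILPDA, DGAT1 and DGAT2 did not pass the test. Leaving aside G0S2, which was selected for its rise, 2 of 8 genes rose and 2 fell at an adjusted p under 0.05 in edgeR's quasi-likelihood test with Benjamini-Hochberg adjustment over all 14034 genes. That is 50% of the 8 genes, close to the 52.9% of all genes tested that passed the same threshold, with 26.3% higher and 26.5% lower. Their median absolute log2 fold change of 0.22 was likewise near the 0.24 of all genes. The libraries of the groups did not overlap for 5 of the 8 genes, 2 higher and 3 lower, against 60.5% of all genes, with 30.2% higher and 30.3% lower.

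**Figure D1:**
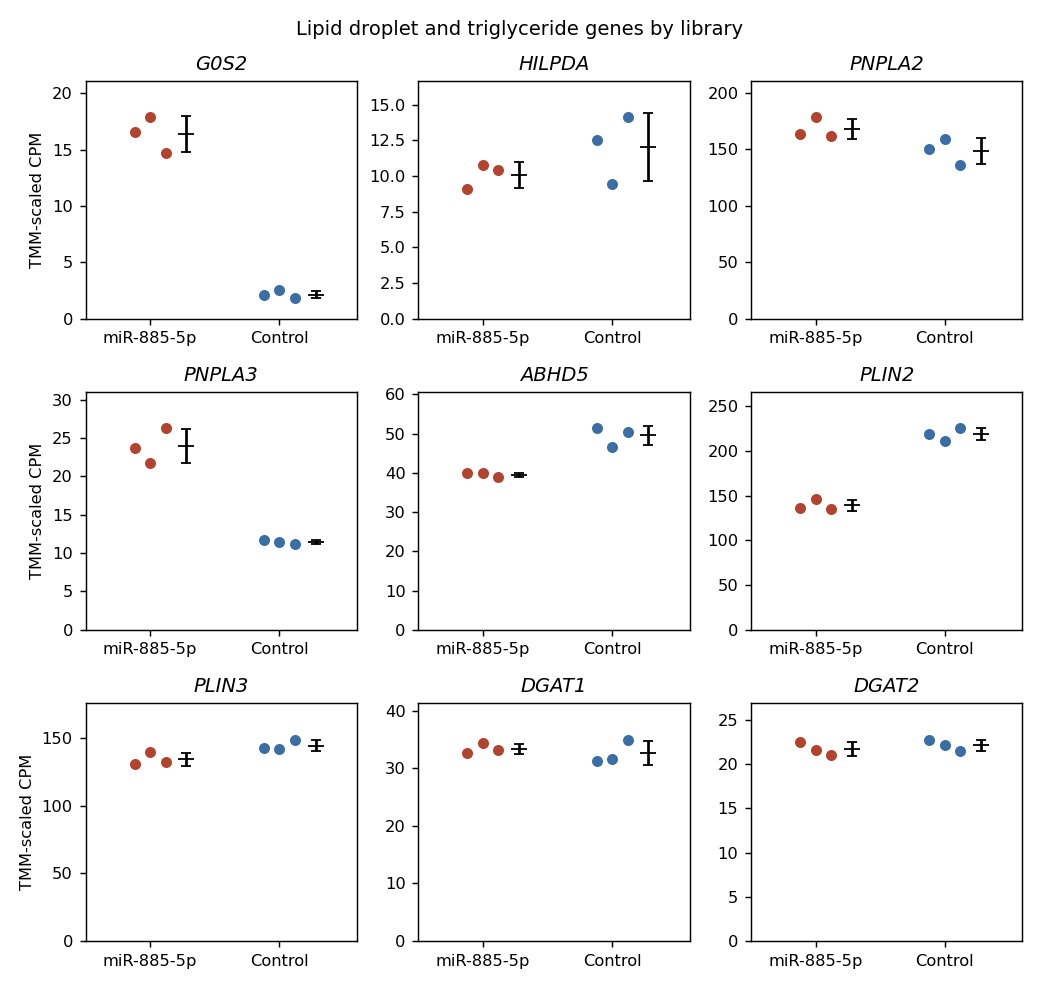
TMM-scaled CPM (vertical axis, from 0) of 9 genes in each library, miR-885-5p on the left and Control on the right of each panel; points are libraries 1 to 3 and the black bars are the mean and SD (n = 3). G0S2 and PNPLA3 lie far above Control, PLIN2 and ABHD5 below it, and HILPDA, DGAT1 and DGAT2 overlap between the groups.

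Among the inhibitors of the lipase, G0S2 (ENSG00000123689, chr1:209675420-209676388, plus strand) was counted 783, 1030 and 770 times in miR-885-5p libraries 1 to 3, against 98, 118 and 91 times in Control libraries 1 to 3. On the CPM scale, with library sizes adjusted by trimmed means (TMM), these are 16.6, 17.9 and 14.7 with miR-885-5p and 2.06, 2.50 and 1.85 in Control. Every miR-885-5p library lay well above every Control library. The means were 16.4 ± 1.59 and 2.14 ± 0.334 CPM (SD, n = 3 each), a log2 fold change of 2.94 (SE 0.13) or 7.68-fold. Since the gene was selected for this rise, the values are a description and carry no test. Among 10697 named genes averaging 5 CPM or more it ranked 5 by the size of the rise. Among all genes tested, without that minimum, it ranked 26. Its mean in Control was below 5 CPM, so it met the minimum through the miR-885-5p libraries. Both ranks restate the fold change by which the gene was chosen. The gene is overlapped by the annotated antisense gene AL031316.1, and no label or header says whether reads were counted by strand, so reads of the pair cannot be told apart. The same limit holds for PNPLA2, PLIN3 and DGAT2, which annotated antisense genes overlap, and for DGAT1, which HSF1 overlaps on the other strand. HILPDA is overlapped by processed transcripts on its own strand.

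HILPDA, the hypoxia-inducible inhibitor of the same lipase, was at 9.06, 10.8 and 10.4 CPM with miR-885-5p and at 12.5, 9.46 and 14.1 CPM in Control. The groups overlapped through Control library 2, the lowest of its group. The log2 fold change was -0.25 (SE 0.14, 95% interval -0.57 to 0.06, adjusted p = 0.153 in edgeR). Without Control library 2 it was -0.40 (adjusted p = 0.00972, edgeR), so this library decides the call.

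The lipase gene PNPLA2 was at 163, 178 and 162 CPM with miR-885-5p, against 150, 160 and 136 CPM in Control. The lowest miR-885-5p library and the highest Control library were nearly level. The mean was 168 ± 9.04 CPM with miR-885-5p and 149 ± 11.7 CPM in Control (SD, n = 3 each; log2 fold change 0.18, SE 0.06, adjusted p = 0.0322 in edgeR). The call ended without miR-885-5p library 1 or 2 and without Control library 1 or 3, where the edgeR adjusted p was 0.0501, 0.126, 0.0731 and 0.0595. With the replicate number as a block it remained, with adjusted p = 0.0136.

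PNPLA3 (chr22:43923739-43964488, plus strand) was at 23.7, 21.8 and 26.3 CPM with miR-885-5p and at 11.8, 11.5 and 11.2 CPM in Control. The Control libraries lay within a narrow range and all miR-885-5p libraries far above it. The gene rose to 23.9 ± 2.23 CPM with miR-885-5p, against 11.5 ± 0.261 CPM in Control (SD, n = 3 each), 2.08-fold with a 95% interval of 1.83 to 2.36 (log2 fold change 1.06, SE 0.08, edgeR adjusted p = 5.13e-06). It was the only one of the 8 genes past a test against a 1.5-fold change (edgeR glmTreat, adjusted p = 6.64e-04). Rises of at least 2-fold past the threshold were found for 3.11% of all genes and falls of that size for 2.29%. SAMM50, a mitochondrial outer membrane gene annotated as overlapping it on the same strand, rose less (log2 fold change 0.19, SE 0.06, adjusted p = 0.0165 in edgeR).

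The coactivator gene ABHD5 was at 39.9, 39.8 and 39.0 CPM with miR-885-5p and at 51.3, 46.7 and 50.5 CPM in Control. The miR-885-5p libraries were nearly identical and all lay below the lowest Control library. It fell to 39.6 ± 0.517 CPM with miR-885-5p, against 49.5 ± 2.47 CPM in Control (SD, n = 3 each; log2 fold change -0.32, SE 0.05, edgeR adjusted p = 6.22e-04). ABHD5 holds 2 of the 7mer-A1 matches printed above, in a 3′ UTR of 4193 bases. PLIN3, which also holds a 7mer-A1, did not pass the test, and PNPLA3, with a 6mer, rose. The part of any match in these changes was not tested. ANO10, which is annotated as overlapping ABHD5 on the other strand, went the other way (log2 fold change 0.24, SE 0.05, adjusted p = 0.00136 in edgeR).

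Of the droplet coats, PLIN2, the main perilipin of hepatocytes, was at 136, 146 and 136 CPM with miR-885-5p and at 219, 212 and 225 CPM in Control. The gap between the groups was several times the range within either. It fell to 139 ± 5.98 CPM with miR-885-5p, against 219 ± 6.81 CPM in Control (SD, n = 3 each), which is 0.636 of the Control level with a 95% interval of 0.595 to 0.680 (log2 fold change -0.65, SE 0.04, edgeR adjusted p = 2.02e-06). Its 3′ UTR of 478 bases holds no seed match, and the cause of the fall was not tested.

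PLIN3, a coat protein that moves from the cytosol to nascent droplets, was at 131, 139 and 133 CPM with miR-885-5p and at 143, 142 and 149 CPM in Control. The groups did not overlap, but by a small margin. The log2 fold change of -0.11 (SE 0.04, 95% interval -0.20 to -0.01) had an edgeR adjusted p of 0.0519. Without miR-885-5p library 2 or Control library 2 it passed, with edgeR adjusted p = 0.0404 and 0.0464. The authors' deposited table gives p = 0.0347 for PLIN3, with no adjustment named. Its log2 fold change of -0.105 was also that of the DESeq2 fit made here, where the adjusted p was 0.0630.

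The acyltransferase genes gave no difference past the threshold. DGAT1 was at 32.6, 34.3 and 33.1 CPM with miR-885-5p and at 31.3, 31.7 and 35.0 CPM in Control, so that Control library 3 held the highest value of all. DGAT2 was at 22.5, 21.6 and 21.0 CPM with miR-885-5p and at 22.8, 22.1 and 21.5 CPM in Control. For DGAT1 the log2 fold change was 0.03 with a 95% interval of -0.10 to 0.17 (edgeR adjusted p = 0.690). For DGAT2 it was -0.03 with a 95% interval of -0.16 to 0.11 (edgeR adjusted p = 0.723), and 0.02 under total-count scaling.

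**Figure D2:**
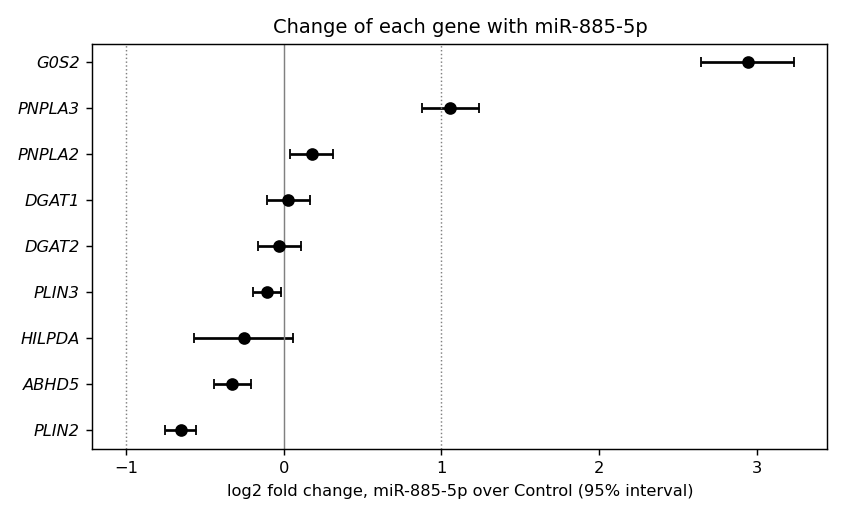
Log2 fold change of miR-885-5p over Control (horizontal axis) for each of the 9 genes (rows), with 95% intervals from the edgeR fit of 3 libraries a group; dotted lines mark a 2-fold change. G0S2 stands alone at 2.94 and PNPLA3 is next at 1.06, while PLIN2 is lowest at -0.65; the interval of G0S2 describes a gene selected for its rise.

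Levels of different genes were compared on the authors' FPKM scale, which is per length. With miR-885-5p, PLIN3, PLIN2 and PNPLA2 were the most abundant and close together, at 68.6 ± 6.5, 66.3 ± 3.77 and 64.9 ± 4.42 FPKM (SD, n = 3), with overlapping ranges. In Control the same genes stood in a clear order, with PLIN2 at 100.01 ± 4.39, PLIN3 at 73.0 ± 3.73 and PNPLA2 at 55.1 ± 3.61 FPKM, and their ranges did not overlap. G0S2 came next after these with miR-885-5p at 17.8 ± 1.94 FPKM, apart from its neighbours in the order, and last in Control at 2.21 ± 0.320 FPKM. The other genes lay between 8.13 (HILPDA) and 9.36 FPKM (ABHD5) with miR-885-5p, each overlapping the next, against 3.81 (PNPLA3) to 10.9 FPKM (ABHD5) in Control. On this scale ABHD5 overlapped between the groups, at 7.71, 10.95 and 9.41 FPKM with miR-885-5p against 11.2, 11.5 and 10.1 FPKM in Control, unlike its counts. PLIN3 likewise overlapped in FPKM but not in counts. HILPDA was the reverse, at 8.11, 8.65 and 7.63 FPKM with miR-885-5p against 8.73, 8.91 and 11.6 FPKM in Control, without overlap by a small margin, while its counts overlapped. The count divided by the FPKM and the library total gives an apparent length per gene, which ranged from 3.72 to 5.25 kb over libraries for ABHD5, from 1.04 to 1.41 kb for HILPDA and from 1.82 to 2.14 kb for PLIN3. For the other 6 genes it varied by at most 3.65%, so the FPKM of ABHD5, HILPDA and PLIN3 is less certain than the rest.

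**Figure D3:**
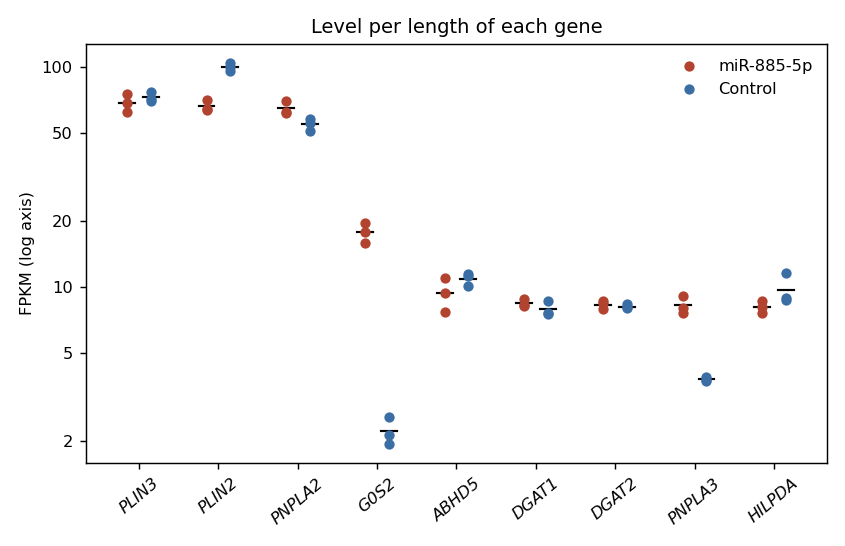
FPKM (log axis) of each of the 9 genes in each library, ordered by the miR-885-5p mean; red points on the left are miR-885-5p and blue points on the right Control, with the mean as a short line (n = 3). G0S2 averages 17.8 FPKM with miR-885-5p, above HILPDA, ABHD5, PNPLA3 and the acyltransferases, and 2.21 FPKM in Control, below all of them.

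Ratios within a library do not depend on the scaling between libraries. Those with ABHD5, HILPDA or PLIN3 still carry the varying apparent length of these genes and are less certain. The ratio of G0S2 to PNPLA2 FPKM, inhibitor over lipase, was 0.285, 0.281 and 0.254 with miR-885-5p and 0.0382, 0.0439 and 0.0379 in Control, or 6.83-fold higher by the means with no overlap. For the other inhibitor gene, HILPDA, the ratio to PNPLA2 went the other way. It was 0.129, 0.123 and 0.123 with miR-885-5p and 0.157, 0.153 and 0.227 in Control, without overlap in FPKM. By counts these ratios overlapped, with 446 HILPDA to 7522 PNPLA2 counts in Control library 2 and 621 to 10282 in miR-885-5p library 2. Control library 2 also had the shortest apparent length of HILPDA, 1.04 kb. The ratio of ABHD5 to PNPLA2, coactivator over lipase, was 0.123, 0.156 and 0.152 with miR-885-5p, against 0.202, 0.197 and 0.197 in Control. All miR-885-5p libraries lay below Control there, although ABHD5 by itself overlapped in FPKM. The lowest ratio, in miR-885-5p library 1, went with the longest apparent length of ABHD5, 5.25 kb. PNPLA3 to PNPLA2 was 0.128 ± 0.0194 with miR-885-5p and 0.0694 ± 0.00493 in Control (SD, n = 3 each). PLIN2 to PLIN3 was 1.04, 0.940 and 0.933 with miR-885-5p and 1.30, 1.36 and 1.45 in Control, so the perilipins were about level with miR-885-5p and PLIN2 led in Control. DGAT1 to DGAT2 was 1.01 ± 0.0535 with miR-885-5p and 0.973 ± 0.0889 in Control, with overlapping libraries. These ratios were chosen with the fold changes known and carry no test.

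**Figure D4:**
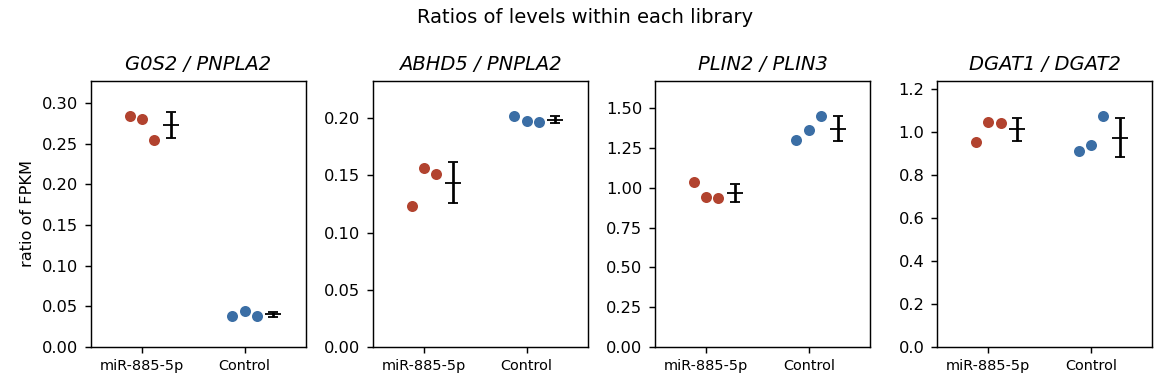
Ratio of FPKM within each library (vertical axis, from 0) for 4 gene pairs, miR-885-5p on the left and Control on the right; points are libraries 1 to 3, black bars the mean and SD (n = 3). The G0S2 to PNPLA2 ratio averages 0.273 with miR-885-5p and 0.0400 in Control, and the DGAT1 to DGAT2 ratio overlaps between the groups.

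The promoters of G0S2 and PLIN2 are shown because both genes are commonly listed as targets of peroxisome proliferator-activated receptors (PPARs) and here they went in opposite directions. Sequences are RefSeq's on GRCh38.p14, 250 bases before to 50 after the start of transcription, and 6 of the 10 genes were matched in that table. They were searched on both strands for AGGTCA, a receptor recognition element, its direct repeats spaced by 1 base (DR1) and by 4 bases (DR4), the E-box CACGTG, the hypoxia core ACGTG, the C/EBP palindrome TTGCNNAA, the sterol element TCACCCCAC, the GC box GGGCGG, the CCAAT box and the TATA box TATAAA. The G0S2 promoter holds none of these strings and is printed in lower case throughout.
G0S2 promoter, chr1:209675162-209675461, plus strand: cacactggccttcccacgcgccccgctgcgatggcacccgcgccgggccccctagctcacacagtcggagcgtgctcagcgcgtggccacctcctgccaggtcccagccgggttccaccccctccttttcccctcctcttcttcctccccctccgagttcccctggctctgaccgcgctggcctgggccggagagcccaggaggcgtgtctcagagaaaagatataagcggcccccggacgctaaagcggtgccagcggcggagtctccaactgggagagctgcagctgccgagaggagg
PLIN2 promoter, chr9:19127443-19127742, minus strand: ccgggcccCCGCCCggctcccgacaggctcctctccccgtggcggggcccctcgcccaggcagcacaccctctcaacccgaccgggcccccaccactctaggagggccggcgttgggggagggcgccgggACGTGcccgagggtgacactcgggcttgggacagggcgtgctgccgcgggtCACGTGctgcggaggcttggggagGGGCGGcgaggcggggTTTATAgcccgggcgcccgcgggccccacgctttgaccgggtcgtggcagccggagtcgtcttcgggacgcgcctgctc
Capitals in the PLIN2 promoter mark, from the 5′ end, a GC box, an ACGTG, an E-box (which contains ACGTG on both strands), a second GC box and TATAAA read on the other strand, which starts at base -29. Of 35116 promoters of this length 7.26% hold the E-box, 21.4% ACGTG, 45% the GC box, 11.5% TATAAA, 13.8% AGGTCA, 10.5% the C/EBP palindrome and 34.6% the CCAAT box. The sterol element is in 0.43%, and the DR1 and DR4 strings are in 0.0228% and 0.0199%. These are matches of letters; they say nothing of which factors bind.

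In the surrounding lipid pathways, counted without G0S2, genes rose and fell in every list. In the list of sterol esters and lipoprotein assembly only the thiolase gene ACAT2 rose. These counts stand beside 26.3% higher and 26.5% lower among all genes, whose median log2 fold change was 0.00 when rounded. Of 21 genes of droplet coats and biogenesis 4 rose and 3 fell (median log2 fold change -0.01). CAVIN1, a caveolar coat gene, fell to 345 ± 7.16 CPM with miR-885-5p, against 657 ± 10.2 CPM in Control (n = 3 each), the largest fall of the list at -0.93 on the log2 scale. ACSL3, an acyl-CoA synthetase of nascent droplets, had a log2 fold change of -0.28. HSD17B11, a dehydrogenase found on droplets, rose by 0.46 and CIDEB, a droplet protein of hepatocytes, by 0.43. The CIDEB call was lost without either of miR-885-5p libraries 1 and 2 or Control libraries 1 and 2, with edgeR adjusted p between 0.0524 and 0.0882.

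Of 17 genes of lipolysis, which include the lipases and cofactors above, 9 rose and 5 fell (median log2 fold change 0.12). PNPLA4, a patatin-domain relative of PNPLA2, rose to 3.60 ± 0.193 CPM with miR-885-5p, against 0.973 ± 0.290 CPM in Control, a log2 fold change of 1.88 (SE 0.24, edgeR adjusted p = 1.16e-04). PNPLA3 came next. LPL, the secreted lipoprotein lipase, fell to 2.41 ± 0.385 CPM with miR-885-5p, against 4.65 ± 0.123 CPM in Control (log2 fold change -0.95, SE 0.17). FAF2, which encodes the droplet protein UBXD8, had a log2 fold change of -0.32, close to that of ABHD5.

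Of 15 triglyceride synthesis genes 6 rose and 2 fell (median log2 fold change 0.08). The genes that fell, GPAT3 at -0.49 and GPAM at -0.48 on the log2 scale, both encode glycerol-3-phosphate acyltransferases. GPAT4, the most abundant by count of the 3 such genes tested, was at 95.8 ± 3.03 CPM with miR-885-5p and 101 ± 4.29 CPM in Control, a log2 fold change of -0.08 (adjusted p = 0.145, edgeR). The largest rises were AGPAT4, a lysophosphatidate acyltransferase, at 0.45, and the phosphatidate phosphatase genes LPIN1 and LPIN3 at 0.37 and 0.32. Of 5 genes listed for sterol esters and lipoprotein assembly 1 rose and 3 fell. The rise was that of ACAT2 at 0.67, a thiolase gene that does not itself make sterol esters. NCEH1, P4HB and SOAT1 fell, at -0.44, -0.31 and -0.13, and SAR1B, at -0.17, did not pass the test. SOAT1, which makes sterol esters, lost its call under 7 of 12 alternatives, among them the replicate block (adjusted p = 0.0925, edgeR).

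Of 18 fatty acid uptake and activation genes 8 rose and 4 fell (median log2 fold change 0.13). CD36, a fatty acid translocase, rose to 7.12 ± 1.06 CPM with miR-885-5p, against 1.79 ± 0.233 CPM in Control (log2 fold change 1.99, SE 0.17, edgeR adjusted p = 1.09e-05). FABP3, a fatty acid-binding protein gene, rose by 2.56 on the log2 scale from a low count, at 1.90 ± 0.298 CPM with miR-885-5p against 0.321 ± 0.126 CPM in Control. The transporter gene SLC27A1 rose by 0.76. SLC27A2 had a log2 fold change of -1.26, the binding protein gene FABP5 -0.86, and the synthetase gene ACSL5 -0.65. How reads shared by FABP5 and its processed pseudogenes were counted was not tested.

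Of 23 lipid transcription factors and sensors 14 rose and 3 fell (median log2 fold change 0.26). PPARA, which encodes the PPAR of fatty acid oxidation in liver, rose to 22.2 ± 0.731 CPM with miR-885-5p, against 11.5 ± 0.579 CPM in Control (log2 fold change 0.94, SE 0.07, edgeR adjusted p = 4.34e-06). INSIG1, the sterol-sensing retention factor of SREBP, rose by 0.87 and CEBPA, a hepatocyte and adipocyte factor gene, by 0.74. PPARGC1B, a coactivator gene, had a log2 fold change of -0.58, EPAS1 (HIF-2 alpha) -0.22 and MLX, the partner of ChREBP, -0.14. The MLX call was lost under total-count scaling and without miR-885-5p library 3, with edgeR adjusted p = 0.0639 and 0.0508.

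The PPAR target list itself had 4 of 15 genes higher and 5 lower without G0S2 (median log2 fold change -0.09). TXNIP, which binds thioredoxin, rose by 0.81 and the synthetase gene ACSL1 by 0.75. UCP2, a mitochondrial carrier gene, and SLC25A20, the carnitine carrier gene, had log2 fold changes of -0.84 and -0.79, followed by PLIN2. Of 18 hypoxia target genes, the group of HILPDA, 3 rose and 8 fell (median log2 fold change -0.15). CA9, a carbonic anhydrase gene, fell to 14.4 ± 1.37 CPM with miR-885-5p, against 39.0 ± 1.43 CPM in Control (log2 fold change -1.44), and PDK1 had a log2 fold change of -0.32. EGLN3 had -1.05, a call lost without any of 4 single libraries (edgeR adjusted p between 0.0644 and 0.117). PFKFB4, KDM3A and BNIP3L rose by 0.60, 0.45 and 0.26 on the log2 scale.

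**Figure D5:**
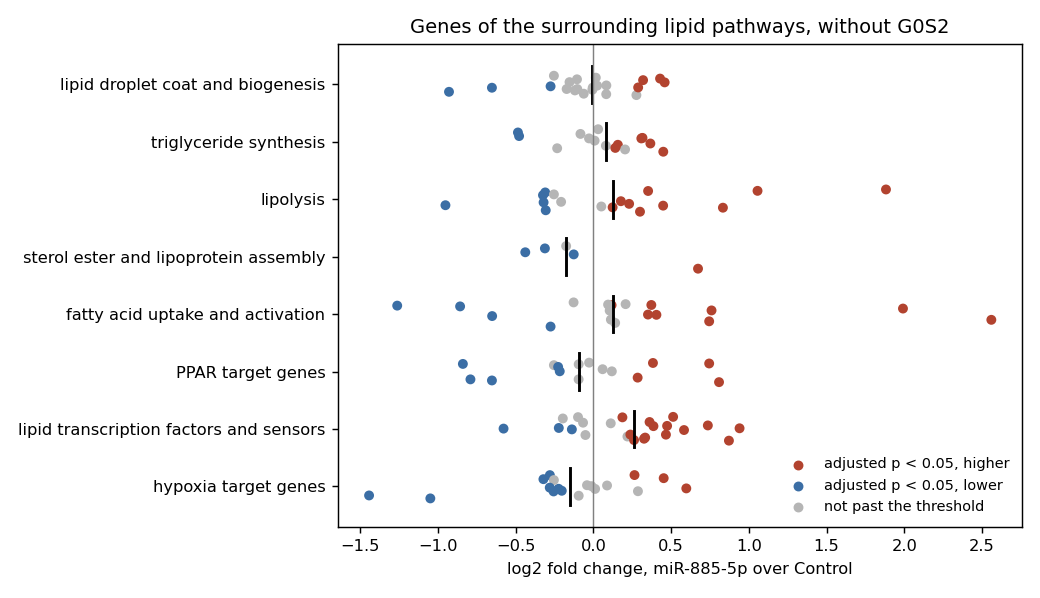
Log2 fold change of miR-885-5p over Control (horizontal axis) for the genes of 8 lipid and hypoxia lists (rows), without G0S2; each point is a gene, red where higher and blue where lower at an edgeR adjusted p under 0.05, grey otherwise, and the black bar is the list's median (vertical scatter is only for legibility). The medians lie between -0.17 for sterol ester and lipoprotein assembly and 0.26 for transcription factors and sensors. Each list has points on both sides of 0, for sterol ester and lipoprotein assembly through ACAT2 alone above 0.

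The genes whose pattern over the 6 libraries was most like that of G0S2, by the Euclidean distance of mean-centred log2 CPM among the same 10697 genes, were APCDD1L, PDE1C, MYADM, DNER and ITGA11. Their distances ran from 0.230 for APCDD1L to 0.720 for ITGA11. MYADM, DNER and ITGA11 averaged 1.17, 1.06 and 1.59 CPM in Control and 11.9, 10.8 and 9.53 CPM with miR-885-5p. Like G0S2, they met the minimum of 5 CPM through the miR-885-5p libraries. APCDD1L averaged 79.0 ± 1.44 CPM with miR-885-5p and 11.4 ± 1.59 CPM in Control, and PDE1C 86.5 ± 0.127 CPM with miR-885-5p and 13.8 ± 0.156 CPM in Control (SD, n = 3 each). As likeness to G0S2 picks genes that rise, their values carry no test. Along chromosome 1 the nearest tested gene before G0S2 was LAMB3, a laminin chain gene 22954 bases away, at 30.7 ± 0.738 CPM with miR-885-5p against 11.4 ± 0.592 CPM in Control (log2 fold change 1.43, SE 0.07, edgeR adjusted p = 2.33e-07). Beyond it PLXNA2 had a log2 fold change of -0.82. On the other side C1orf74, 102820 bases away, had a log2 fold change of 0.08 (adjusted p = 0.385, edgeR) and UTP25 rose by 0.42. In a bulk measurement a change in the number of cells that express a gene and a change in RNA per cell cannot be told apart.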

How the data were processed

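Per the file headers, the authors deposited a raw count and an FPKM value per gene and library; beside them stand the authors' deposited log2 fold change and p-value, whose test the headers do not name. Tools listed, per the submitters' processing notes and without their roles, were DESeq2 1.38.3, HISAT2 2.0.4 and StringTie 2.2.1, with the build GRCh38. Annotation and strand setting were not given in the sources used here. All 12420 Ensembl IDs matched GENCODE 29; the other 1614 rows are new gene models. The smallest row sum was 194.

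The test was edgeR's (version 4.0.16, R 4.3.3) quasi-likelihood fit of the counts with TMM scaling and filterByExpr, which removed 0 rows, with Benjamini-Hochberg adjustment over 14034 genes and a threshold of 0.05. Intervals are 95% from that fit and unadjusted; log2 CPM used a prior count of 2. FPKM was used for levels and ratios, with a pseudocount of 1 where log2 was taken. The fit was tested on simulated counts. Replicates differed beyond sampling noise (chi-square per degree of freedom 7.95 to 40.5 within groups). Alternatives were DESeq2 1.42.0, limma-voom (limma 3.58.1), 3 scalings, 2 filters (which also removed 0 rows), a replicate block, a 1.5-fold test and leaving out each library; those of named genes beside the 10 genes were added after seeing the data. The genes and lists were chosen with earlier results of these data known. Named were all 10 genes, up to 3 rises and 3 falls past the threshold per list, the 5 genes most like G0S2 and 2 neighbours on each side. KRT8, KRT18, SAMM50, ANO10, ADIPOR2, CD68, COL1A1, PDGFRA, GPAT4 and SAR1B were chosen after their values were seen.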

Additional observations from a re-analysis of the deposited data

How the results depend on the processing

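No filter and a filter of 1 CPM in 3 libraries removed 0 rows and gave the same values, so they tested nothing. G0S2 was higher with miR-885-5p under the 12 other alternatives, with log2 fold changes from 2.85 to 3.07. As the gene was selected for its rise in these same libraries, this describes it and carries no test. The calls of PNPLA3, ABHD5 and PLIN2 held in each of these 12, which do not include the 1.5-fold test. Leaving out single libraries gave 1 to 2 genes called higher and 2 to 4 called lower of the 8, 3 to 5 droplet coat and biogenesis genes called lower (the highest of both without Control library 2), and 6286 to 7678 calls over all genes, against 7423 in full. The test against a 1.5-fold change called 1 of the 8 genes higher and 0 lower, with 903 calls over all genes; its stricter null makes fewer calls by construction, and 1524 genes had an unadjusted p under 0.05 in it. DGAT2 changed sign under total-count scaling (0.0204 on the log2 scale) and as a difference of log2(FPKM + 1) (0.0281), both within its interval; the cause was not tested. The median of all genes moved by at most 0.05 on the log2 scale under other scalings. Same-numbered libraries did not deviate together (correlations -0.18, -0.06 and -0.15). So few correlations show no pairing by number but cannot exclude a weak one or a shared batch. With the replicate block 6695 genes were called, and 2 of the 8 genes were higher and 2 lower, as without it. Of 57 genes named by the stated rules beside the lipid droplet genes, 6 lost their call under some alternative: CIDEB, SOAT1, MLX, EGLN3, CD14 and PECAM1. Genes named after their values were seen, among them SAMM50, ANO10 and KRT8, were not put through the alternatives. The 3 libraries a group, and counts near 100 for G0S2 in Control, limit the precision.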
